A study of Homo sapiens with 29 samples.

Results

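The unfolded protein response and the integrated stress response were followed through 33 genes in xenograft tumours of a breast cancer line and its paclitaxel-resistant derivative. The genes were found as rows of the gene count table whose Ensembl identifiers map to the chosen symbols, and all 33 were matched among 58302 genes. They comprise 19 chaperone and degradation genes of the endoplasmic reticulum (ER), 9 genes of the ATF4 arm, and 5 stress sensors and transcription factors. Of the 33, 32 passed the filter on low counts and were tested. ASNS, the asparagine synthetase gene of the ATF4 arm, had at most 1.52 CPM (counts scaled to the library total) in any library and was not tested.

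The tumours were orthotopic xenografts on both sides of SCID-beige mice, hosts without functional lymphocytes. MDA-MB-231 is a triple-negative breast cancer line, and the paclitaxel-resistant line was derived from it, with no statement on whether it is 1 clone. The groups were resistant tumours under the combination (3 libraries), decitabine (3), doxorubicin (4) and vehicle (4), and parental tumours under the combination (4), decitabine (4), doxorubicin (3) and vehicle (4). The DNA methyltransferase inhibitor decitabine was dosed at 0.4 mg/kg and the topoisomerase poison doxorubicin at 1 mg/kg. Combination mice had both agents at these doses, and every group was treated over 26 days. For resistant tumours 1500000 cells were injected and dosing began on day 16, against 250000 cells and day 6 for parental tumours. Each treatment had 4 mice. Which mouse a library came from is not labelled, and the p-values therefore speak only for the variation among these libraries, some of which may share a mouse. The effects of the line, the cell number and the start of treatment cannot be told apart. The study asked whether resistance is tied to changes in expression through DNA methylation, and whether decitabine undoes them.

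Proteins that enter the secretory pathway fold in the ER with the help of chaperones (HSPA5, also called BiP, and HSP90B1, also called GRP94), lectin chaperones (CALR and CANX) and disulfide isomerases (the PDI family). Misfolded protein activates 3 sensors. ATF6 is cleaved and moves to the nucleus, ERN1 (IRE1) splices XBP1 mRNA, and EIF2AK3 (PERK) phosphorylates the translation factor eIF2. The first pair mainly raises chaperones and genes of ER-associated degradation (ERAD). PERK, like the kinases that sense amino acid shortage, haem deficiency and viral RNA, lowers general translation and raises ATF4, which drives DDIT3 (CHOP), TRIB3, CHAC1 and amino acid synthesis genes.

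The libraries held 3398261 to 5382295 counts. Each count is a tag near the 3′ end of a poly(A) transcript, so the splicing of XBP1 was not measured here, and levels in CPM do not scale with length. Markers of the labelled line were detected: VIM, for instance, averaged 2119 CPM in resistant and 2559 CPM in parental tumours. ESR1 and PGR stayed under 1 CPM on average, but CDH1 averaged 120.3 CPM in resistant and 97.8 CPM in parental tumours, and GATA3 45.2 and 28.9 CPM, although low CDH1 is a known feature of the line. The summed fibroblast markers spanned 218 to 2109 CPM in resistant and 361 to 2058 CPM in parental libraries, almost all from collagen genes, and DCN and LUM were under 1 CPM on average in both lines. Of the fibroblast list 0 of 6 tested genes differed between the lines averaged over treatments, against 46.0% of all genes. With the spread given above, this does not show equal levels in the lines. CDH5, CD8A and FABP4 were higher and PECAM1 and CSF1R lower in resistant tumours, the highest of these means being 13.9 CPM. No count was found for CD3E, MS4A1 or ADIPOQ, and no muscle gene was tested. The part of these markers in the results was not tested. On the second principal component, resistant decitabine 2 and parental vehicle 3 stood apart from the other 27 libraries, and results are given with and without them where they matter. In these bulk samples fewer cells of a type and less RNA per cell cannot be told apart.

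Promoters were read first, because the members' best known control elements lie close to the gene start. Windows of 300 bases (250 before to 50 after the start, RefSeq, GRCh38.p14) were found for 32 of the 33 members, PDIA3 being the exception. The windows were searched on both strands for the ER stress response element ERSE (CCAAT and CCACG separated by 9 bases), for ERSE-II (ATTGG and CCACG separated by 1 base) and for the site of ATF4 with its partners (CARE, TGATG and AA separated by 1 base). An exact ERSE was in the windows of 7 members, against 25 of 27305 genes (0.0916%). An ERSE-II was in those of 3 members, against 19 genes (0.0696%), and a CARE in those of 4 members, against 1217 genes (4.46%). These gene counts include the members. The members were chosen as genes of these responses, so the shares are descriptions and carry no test. A match is a stretch of letters, not a site shown to be used, and no match says only that these letters are not in this window. The stretches with a motif before the start are printed 5′ to 3′ on the gene's strand, with the motif in capitals, as its reverse complement where it lies on the opposite strand.

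The ERSE stretches come from the chaperones HSPA5, HSP90B1, CALR and CANX, the isomerase gene PDIA6, the chaperone-like CRELD2 and the transcription factor XBP1. They are shown because each holds an ERSE before the start. Of these genes 5 fell and 1 rose in resistant tumours averaged over treatments, and XBP1 was not called (values further on). Over all genes 23.4% were called lower and 22.6% higher in that comparison. A link between the motif and the line difference was not tested.
HSPA5: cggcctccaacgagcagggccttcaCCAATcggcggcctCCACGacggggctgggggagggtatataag
HSP90B1: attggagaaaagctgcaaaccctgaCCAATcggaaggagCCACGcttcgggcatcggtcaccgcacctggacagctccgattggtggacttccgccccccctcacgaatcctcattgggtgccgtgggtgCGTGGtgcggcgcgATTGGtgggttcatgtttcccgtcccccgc
CALR: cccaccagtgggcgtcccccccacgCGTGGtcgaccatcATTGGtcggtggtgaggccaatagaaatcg
CANX: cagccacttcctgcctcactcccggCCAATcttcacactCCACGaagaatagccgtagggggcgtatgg
PDIA6: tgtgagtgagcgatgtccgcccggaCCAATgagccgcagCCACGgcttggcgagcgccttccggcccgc
CRELD2: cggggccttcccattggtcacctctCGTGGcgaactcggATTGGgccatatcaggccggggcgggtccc
XBP1: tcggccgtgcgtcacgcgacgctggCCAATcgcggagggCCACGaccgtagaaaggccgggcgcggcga
They lie at chr9:125241366-125241434 (minus strand), chr12:103930191-103930364 (plus strand), chr19:12938359-12938427 (plus strand), chr5:179698753-179698821 (plus strand), chr2:10812828-10812896 (minus strand), chr22:49918529-49918597 (plus strand) and chr22:28800578-28800646 (minus strand), in the same order. HSP90B1 holds an ERSE on each strand.

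The ERSE-II and CARE stretches come from HYOU1, an ER chaperone of the HSP110 class, HERPUD1, an ERAD scaffold, SDF2L1, a partner of HSPA5, and the ATF4 targets ASNS and CHAC1.
HYOU1: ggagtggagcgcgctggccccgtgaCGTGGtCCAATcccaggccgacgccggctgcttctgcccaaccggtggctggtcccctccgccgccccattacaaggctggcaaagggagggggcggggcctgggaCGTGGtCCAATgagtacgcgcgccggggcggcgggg
HERPUD1: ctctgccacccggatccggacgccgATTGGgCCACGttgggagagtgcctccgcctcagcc
SDF2L1: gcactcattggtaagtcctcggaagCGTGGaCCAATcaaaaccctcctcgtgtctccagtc
ASNS: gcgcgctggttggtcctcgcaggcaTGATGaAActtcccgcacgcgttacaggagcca
CHAC1: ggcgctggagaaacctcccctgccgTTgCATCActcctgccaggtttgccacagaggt
They lie at chr11:119057249-119057415 (minus strand), chr16:56932000-56932060 (plus strand), chr22:21642089-21642149 (plus strand), chr7:97872444-97872501 (minus strand) and chr15:40953237-40953294 (plus strand), in the same order. HYOU1 holds 2 ERSE-II copies, and HERPUD1 also has a CARE before its start, at bases -176 to -169.

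**Figure D1:**
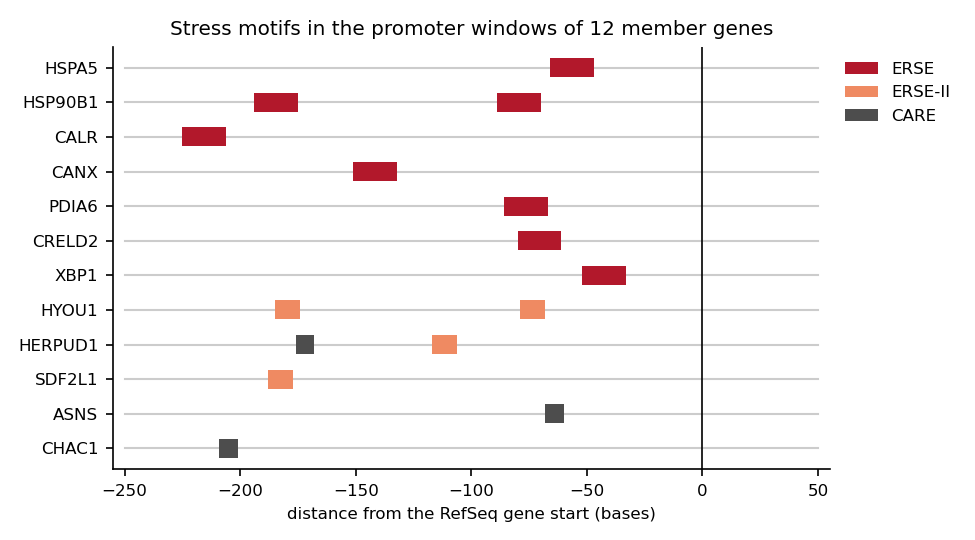
Positions of exact ERSE, ERSE-II and CARE matches in the promoter windows of 12 members; the x axis is the distance in bases from the RefSeq gene start (negative is before it), each bar spans 1 motif, and for genes with several windows 1 is drawn. The CARE of CREB3L2, which lies after the start, is not drawn, and the HSP90B1 row shows 2 ERSE copies.

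Most genes of the chaperone and ERAD arm were lower in resistant than in parental tumours. Among its ERAD genes only HERPUD1 was called, and SEL1L, SYVN1 and EDEM1 were not. Averaged over the 4 treatments, 14 of the 32 tested members fell and 5 rose in resistant tumours (adjusted p under 0.05, edgeR's quasi-likelihood test with Benjamini-Hochberg adjustment). Over all 13495 genes tested, 23.4% were called lower and 22.6% higher, 46.0% in all. The chaperone and ERAD arm gave 13 of the 14 falls among its 19 genes (68.4%) and 1 rise, with a median log2 difference of -0.35. The ATF4 arm gave 3 rises and 0 falls among 8 tested genes, with a median of 0.27. The median over all genes was -0.0035. With upper quartile scaling the split was 7 higher and 10 lower members. Without the pair of libraries that stood apart, it was 6 higher and 13 lower.

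**Figure D2:**
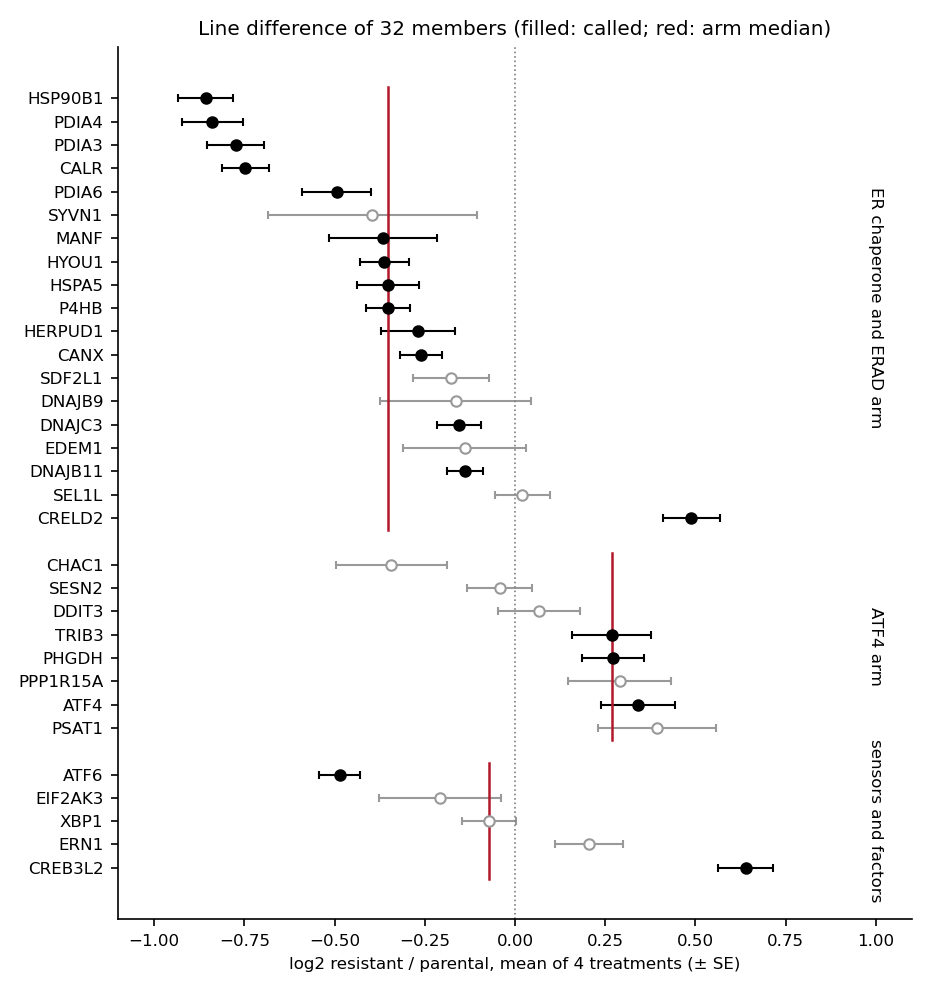
Log2 difference (resistant over parental, mean over the 4 treatments) of the 32 tested members with its SE, grouped by arm; filled points passed the threshold and red lines are arm medians. The chaperone arm lies mostly left of 0, from HSP90B1 at -0.86 to CRELD2 at 0.49, and the red line of the ATF4 arm is at 0.27.

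HSP90B1, the HSP90 family chaperone of the ER (chromosome 12, 103930107 to 103953645, plus strand, GRCh38), spanned 485 to 818 CPM with a median of 627 in 14 resistant libraries, against 899 to 1498 CPM with a median of 1157 in 15 parental libraries. Every resistant library lay below every parental one. The averaged log2 difference was -0.86 ± 0.08 (SE, adjusted p = 3.50e-10), or 1.81-fold lower in resistant tumours. Under the combination, HSP90B1 had 530.4, 608 and 818 CPM in resistant tumours, against 1071, 1279, 1019.8 and 1326 CPM in parental tumours. Under vehicle it had 786, 602, 663 and 647 CPM in resistant tumours, against 1218, 998, 1407 and 1286 CPM in parental tumours. The lines did not overlap under any of the 4 treatments, and the log2 differences ran from -1.07 under decitabine to -0.64 under doxorubicin. Each of these calls held in all alternative fits.

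CALR encodes calreticulin, a calcium-binding lectin chaperone (chromosome 19, 12938578 to 12944489, plus strand). It spanned 228 to 390.3 CPM with a median of 302 in resistant libraries, against 418 to 595 CPM with a median of 504 in parental libraries, again without overlap. Its averaged log2 difference was -0.75 ± 0.07 (SE, adjusted p = 2.14e-10). Under decitabine it had 309.9, 228 and 313 CPM in resistant tumours, against 518, 515, 595 and 576 CPM in parental tumours, a log2 difference of -0.96 ± 0.14 (SE, adjusted p = 7.29e-06). Under vehicle the values were 345, 327, 390.3 and 332 CPM in resistant and 457, 504, 418 and 546 CPM in parental tumours, with a difference of -0.47 ± 0.12 (SE, adjusted p = 0.0071). The value of 228 CPM was from resistant decitabine 2, which stood apart and was at -0.45 on the log2 scale against the rest of its group. The call under decitabine held in all 15 alternative fits. Whether the larger size under decitabine differs from that under vehicle was tested as the line difference in the decitabine response, and no member passed.

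PDIA3 (ERp57, chromosome 15, 43746392 to 43773279, plus strand) works with calreticulin and calnexin on glycoproteins, and PDIA4 (chromosome 7, 149003062 to 149028641, minus strand) is another disulfide isomerase. PDIA3 spanned 71.8 to 123 CPM with a median of 103 in resistant libraries, against 120.1 to 273 CPM with a median of 178 in parental libraries, and the ranges overlapped at their ends. PDIA4 spanned 38.0 to 63.3 CPM with a median of 49.4 in resistant libraries, against 71.1 to 110.0 CPM with a median of 86.2 in parental libraries, with no overlap. Under doxorubicin PDIA4 had 55.5, 49.0, 46.1 and 42.5 CPM in resistant tumours, against 105, 81.9 and 103 CPM in parental tumours (log2 -1.0 ± 0.17 SE, adjusted p = 9.97e-05). The averaged log2 differences were -0.77 ± 0.08 (SE, adjusted p = 4.70e-09) for PDIA3 and -0.84 ± 0.08 (SE, adjusted p = 2.73e-09) for PDIA4. Both fell under each treatment, PDIA3 most under decitabine (119, 71.8 and 116 CPM in resistant against 178, 196, 240.4 and 273 CPM in parental tumours). The value of 71.8 CPM was from resistant decitabine 2, at -0.71 on the log2 scale against the rest of its group. Under doxorubicin the PDIA3 call was lost without parental doxorubicin 1 (adjusted p = 0.0519), parental doxorubicin 3 (0.15) or resistant doxorubicin 4 (0.0764). PDIA3P1, a processed copy of PDIA3 counted as its own row, averaged 6.88 CPM in resistant and 6.59 CPM in parental tumours. Of 16 such named copies of members, 11 had no count.

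**Figure D3:**
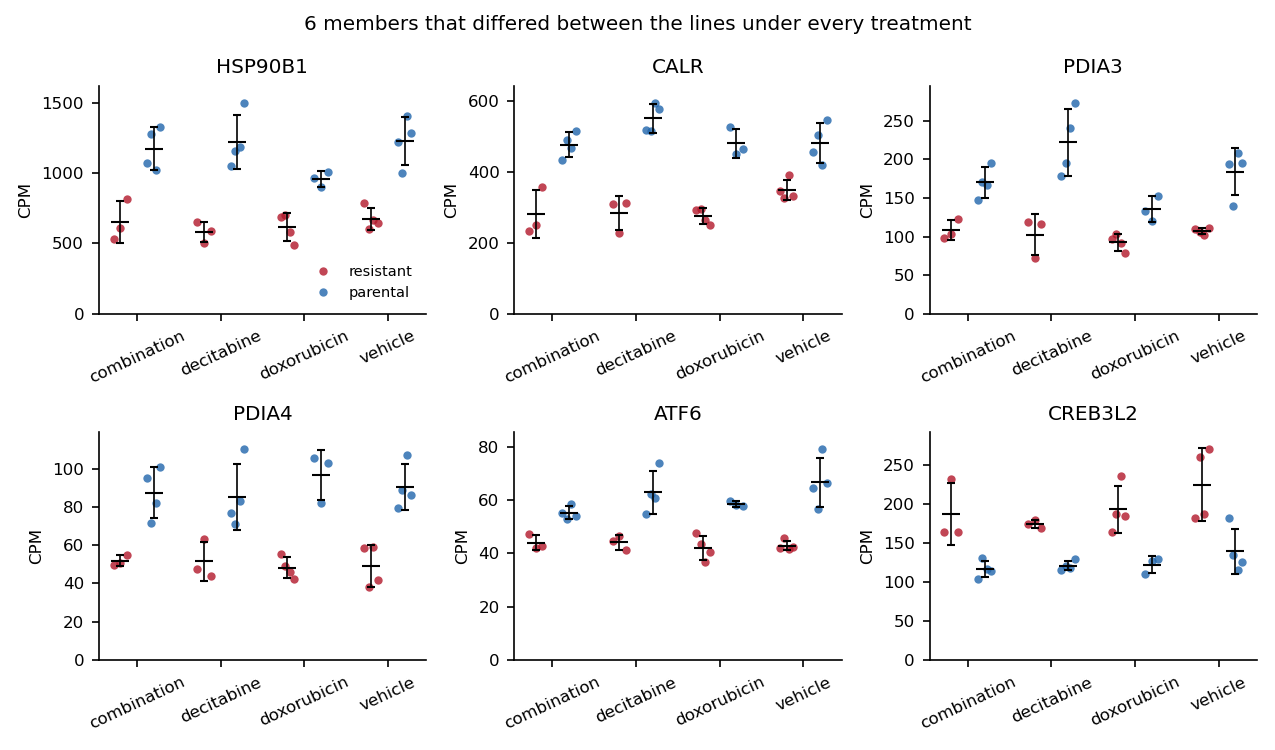
CPM of HSP90B1, CALR, PDIA3, PDIA4, ATF6 and CREB3L2 in every library, by treatment, with resistant tumours (red) left of parental tumours (blue); bars are the mean ± SD of 3 or 4 libraries. Within each treatment the 5 genes that fell have all resistant points below all parental points, and CREB3L2 has them above.

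HSPA5, the ER HSP70 chaperone that holds the sensors inactive, differed less. It spanned 798 to 1678 CPM with a median of 1155 in resistant libraries, against 956 to 2038 CPM with a median of 1453 in parental libraries, with wide overlap. The averaged log2 difference was -0.35 ± 0.09 (SE, adjusted p = 0.00134). Under the combination it had 1095, 798 and 1517 CPM in resistant tumours, against 1429, 2038, 1453 and 1818 CPM in parental tumours (log2 -0.57 ± 0.18 SE, adjusted p = 0.0218), and these groups overlapped. Under doxorubicin it had 1169.6, 1005, 926 and 1189.9 CPM in resistant and 1289, 1813 and 1642 CPM in parental tumours (log2 -0.56 ± 0.17 SE, adjusted p = 0.0288), and these groups did not overlap. Under vehicle it had 1577, 1169, 1678 and 1462 CPM in resistant and 1503, 1552, 1408 and 1824 CPM in parental tumours, and it was not called there (log2 -0.10 ± 0.16 SE, adjusted p = 0.727). Leaving out parental combination 2 or resistant combination 1 or 2 ended the call under the combination (adjusted p = 0.0925, 0.0789 and 0.185). Leaving out parental doxorubicin 2 or 3 or resistant doxorubicin 2 or 3 ended that under doxorubicin (adjusted p = 0.144, 0.114, 0.0733 and 0.0973).

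Of the other chaperone and ERAD genes, the isomerases PDIA6 (log2 -0.49 ± 0.10 SE, adjusted p = 9.79e-05) and P4HB (log2 -0.35 ± 0.06 SE, adjusted p = 2.12e-05), the HSP110-class chaperone HYOU1 (log2 -0.36 ± 0.07 SE, adjusted p = 6.70e-05) and the membrane lectin CANX (log2 -0.26 ± 0.06 SE, adjusted p = 6.15e-04) fell on the averaged log2 scale, and these calls held in all 36 alternative fits. MANF, a secreted ER factor, HERPUD1, and the HSP40 co-chaperones DNAJC3 and DNAJB11 also fell, by 0.36, 0.27, 0.16 and 0.14 on the log2 scale. Those calls were lost in 22, 13, 25 and 6 of 36 alternative fits (adjusted p 0.0504 to 0.105 for MANF, 0.0515 to 0.0794 for HERPUD1, 0.0517 to 0.131 for DNAJC3 and 0.0575 to 0.168 for DNAJB11). SDF2L1, the ERAD adaptor SEL1L, the ERAD ligase SYVN1, the mannosidase-like EDEM1 and the co-chaperone DNAJB9 were not called, with averaged log2 differences from -0.40 (SYVN1) to 0.02 (SEL1L).

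CRELD2, an ER-stress-induced protein with isomerase activity, was the exception in the arm. It spanned 39.5 to 71.5 CPM with a median of 51.2 in resistant libraries, against 25.5 to 47.6 CPM with a median of 35.3 in parental libraries. The averaged log2 difference was 0.49 ± 0.08 (SE, adjusted p = 1.02e-05), and it held in all alternative fits. Under the combination it had 55.4, 71.5 and 43.6 CPM in resistant tumours, against 29.8, 25.5, 35.3 and 33.5 CPM in parental tumours, without overlap (log2 0.87 ± 0.16 SE, adjusted p = 3.23e-04). CRELD2 carries an exact ERSE, as printed above, as do HSPA5, HSP90B1, CALR, CANX and PDIA6, whose averaged differences were all negative.

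The number of members lower in resistant tumours was 9 under the combination, 9 under decitabine, 11 under doxorubicin and 6 under vehicle, of 32 tested. The shares of all genes called lower were 11.4%, 13.1%, 8.05% and 11.5% in the same order, and those called in either direction 21.9%, 26.8%, 13.9% and 20.1%. Members higher in resistant tumours numbered 2, 2, 1 and 4, against 10.6%, 13.7%, 5.88% and 8.66% of all genes. Without parental vehicle 3 and resistant decitabine 2, the calls in both directions together were 16 under the combination, 8 under decitabine, 13 under doxorubicin and 8 under vehicle. HSP90B1, CALR, PDIA3, PDIA4 and ATF6 were called lower, and CREB3L2 higher, under every treatment. These are 6 of 32 members (18.8%), against 5.78% of all genes called the same way in all 4 comparisons. The calls of HSP90B1, CALR, PDIA4 and CREB3L2 held in every alternative fit of these 4 comparisons. ATF6 lost its call in 14 of 15 fits under the combination and in 1 under doxorubicin (no filter on low counts, adjusted p = 0.0579), and PDIA3 in 3 under doxorubicin. Of the members not called under every treatment, CANX lost its call under doxorubicin in 11 alternative fits, SDF2L1 in 9, and DNAJB11, HYOU1 and P4HB in 2, 1 and 1. Under the combination P4HB lost its call in 12 fits, HERPUD1 in 5 and PDIA6 in 3. Under decitabine DNAJC3 lost it in 7 and P4HB in 3, and under vehicle CRELD2 in 10 and CANX in 6.

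Among the 8 tested genes of the ATF4 arm, none was called lower in resistant than in parental tumours. In the averaged comparison 23.4% of all genes were called lower, and so few genes carry no test of a difference from that share. The values are of mRNA, and ATF4 protein was not measured here. ATF4, its transcription factor, spanned 919.9 to 1989 CPM with a median of 1228 in resistant libraries, against 742 to 1373 CPM with a median of 957 in parental libraries, with wide overlap, and its averaged log2 difference was 0.34 ± 0.10 (SE, adjusted p = 0.00743). Under decitabine ATF4 had 969, 1989 and 1179 CPM in resistant tumours, against 742, 896, 769 and 957 CPM in parental tumours (log2 0.71 ± 0.21 SE, adjusted p = 0.0115). The highest of these is resistant decitabine 2, and without it the log2 difference was 0.35 and the call was lost (adjusted p = 0.245). Its processed copy ATF4P3 averaged 1.04 CPM in resistant and 1.52 CPM in parental tumours. TRIB3, a pseudokinase that restrains ATF4 signalling, and PHGDH, the first enzyme of serine synthesis, also rose on average (log2 0.27 ± 0.11 SE, adjusted p = 0.0458, and log2 0.27 ± 0.09 SE, adjusted p = 0.0104). The PHGDH call held in all 36 alternative fits, while that of TRIB3 was lost in 16, for example without parental vehicle 1 (adjusted p = 0.0688).

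Under vehicle, PPP1R15A and PSAT1 were called higher in resistant tumours. PPP1R15A (GADD34), which directs the phosphatase that reverses eIF2 phosphorylation, had 154, 135, 148 and 113 CPM in resistant tumours, against 70.7, 96.3, 58.6 and 91.5 CPM in parental tumours, without overlap (log2 0.79 ± 0.27 SE, adjusted p = 0.0381). PSAT1, the second enzyme of serine synthesis, had 74.1, 84.4, 45.4 and 93.8 CPM in resistant and 52.6, 46.7, 14.4 and 36.7 CPM in parental tumours (log2 0.98 ± 0.31 SE, adjusted p = 0.0269), and the groups overlapped. With 1 library left out, the PPP1R15A call was lost without parental vehicle 1 (0.0809), parental vehicle 3 (0.121), resistant vehicle 1 (0.0735), resistant vehicle 2 (0.058) and resistant vehicle 3 (0.0645), and the PSAT1 call without parental vehicle 3 (0.0883), resistant vehicle 2 (0.063) and resistant vehicle 4 (0.0845) (adjusted p in parentheses). DDIT3, the transcription factor CHOP, spanned 53.0 to 103 CPM with a median of 66.6 in resistant libraries, against 37.4 to 105 CPM with a median of 64.3 in parental libraries, and its averaged log2 difference was 0.07 ± 0.11 (SE, adjusted p = 0.662). The annotated 3′ end of DDIT3 (chromosome 12, 57516588, minus strand) lies within the tRNA synthetase gene MARS1 (57475445 to 57517569, plus strand). The strand setting is not given, so the DDIT3 count is uncertain here and in the drug comparisons below. CHAC1, which degrades glutathione, and SESN2, a stress-induced inhibitor of mTORC1, were at -0.34 ± 0.15 and -0.04 ± 0.09 (log2, SE) and were not called.

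Among sensors and factors, ATF6 (chromosome 1, 161766294 to 161964070, plus strand) spanned 36.7 to 47.5 CPM with a median of 42.5 in resistant libraries, against 52.9 to 79.0 CPM with a median of 58.5 in parental libraries, with no overlap. Its averaged log2 difference was -0.49 ± 0.06 (SE, adjusted p = 5.81e-08), and under vehicle it was -0.63 ± 0.11 (SE, adjusted p = 1.02e-04), from 42.0, 45.6, 41.6 and 42.5 CPM in resistant and 64.4, 56.7, 79.0 and 66.4 CPM in parental tumours. The call under the combination (log2 -0.32 ± 0.12 SE, adjusted p = 0.0458) was lost in 14 of 15 alternative fits, among them every fit that left out 1 of its 7 libraries (adjusted p from 0.0568 to 0.165). CREB3L2, an ATF6-like membrane-bound factor known for secretory cargo and collagen export in mouse cartilage (chromosome 7, 137874979 to 138002067, minus strand), spanned 163 to 269.8 CPM with a median of 183 in resistant libraries, against 104 to 181.5 CPM with a median of 121 in parental libraries. The ranges overlapped through parental vehicle 1, at 181.5 CPM, and the averaged difference was 0.64 ± 0.08 (SE, adjusted p = 7.34e-08). XBP1 total mRNA spanned 59.9 to 109.8 CPM with a median of 85.1 in resistant libraries, against 74.6 to 115 CPM with a median of 83.1 in parental libraries, a log2 difference of -0.07 ± 0.07 (SE, adjusted p = 0.456). ERN1 and EIF2AK3 were present at low levels (at most 21.9 and 11.5 CPM in any library) and not called, at 0.20 ± 0.09 and -0.21 ± 0.17 (log2, SE).

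The arms were then set side by side in each library. The CPM of the 19 chaperone and ERAD genes summed to 4066 to 5789 in resistant libraries (median 4762) and to 5881 to 7402 in parental libraries (median 6473), so that no library of one line reached the other's range. HSPA5, HSP90B1 and CANX hold most of this sum. When each gene counted equally, as the mean over genes of log2 CPM minus the gene's mean over all libraries, the arm ranged from -0.91 to 0.08 in resistant and from -0.20 to 0.32 in parental libraries, which overlap. The same mean over 8 ATF4-arm genes ranged from -0.22 to 0.47 in resistant and from -0.38 to 0.18 in parental libraries. The ATF4 mean minus the chaperone mean was 0.26 ± 0.23 (SD, n = 14) in resistant libraries and -0.24 ± 0.15 (SD, n = 15) in parental libraries. It was above 0 in all 14 resistant libraries and below 0 in all parental libraries except parental doxorubicin 3, at 0.015. Without the pair that stood apart the means were 0.22 and -0.25. These scores are descriptions and carry no test.

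**Figure D4:**
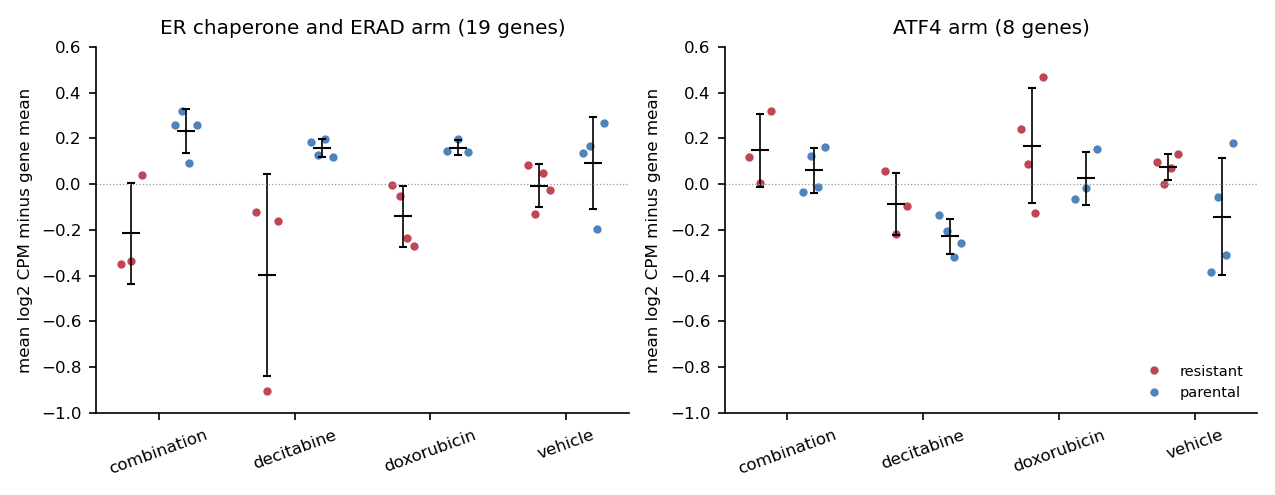
Mean log2 CPM minus each gene's mean over 29 libraries, for the 19 chaperone and ERAD genes (left) and 8 ATF4-arm genes (right), by treatment, with resistant tumours (red) left of parental tumours (blue); points are libraries and bars mean ± SD of 3 or 4 libraries. The lowest point, at -0.91, is resistant decitabine 2, and the ATF4-arm ranges of the lines overlap when the treatments are pooled.

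Few members were called between drug and vehicle. Against vehicle of the same line, the number of members called was 0 of 32 under doxorubicin and under decitabine in both lines and under the combination in resistant tumours, and 1 under the combination in parental tumours. The shares of all genes called in either direction were 1.67% for decitabine, 0.230% for doxorubicin and 1.03% for the combination in parental tumours, and 3.33%, 0% and 1.13% in resistant tumours, in the same order. The shares called higher and lower were 0.793% and 0.874%, 0.0371% and 0.193%, and 0.645% and 0.385% in parental tumours. In resistant tumours they were 2.03% and 1.30%, 0% and 0%, and 0.911% and 0.215%. At an unadjusted p under 0.05, edgeR gave 7, 4 and 5 members in parental tumours, against 19.2%, 10.5% and 17.9% of all genes, and 9, 4 and 10 members in resistant tumours, against 19.8%, 4.38% and 15.5% of all genes. DESeq2 called 0, 0 and 1 members in parental tumours and 1, 0 and 0 in resistant tumours. The one in resistant tumours was PPP1R15A under decitabine, which had 92.3, 37.9 and 74.5 CPM, against 154, 135, 148 and 113 CPM under vehicle (log2 -1.0 ± 0.30 SE, adjusted p = 0.0616 in edgeR). Those groups did not overlap. The value of 37.9 CPM was from resistant decitabine 2, which stood apart and was at -1.12 on the log2 scale against the rest of its group. The line difference in the decitabine response was called for 0 members by edgeR and by DESeq2, against 0.119% of all genes in edgeR (0.104% higher, 0.0148% lower). At an unadjusted p under 0.05 it was found for 7 members, against 19.6% of all genes.

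TRIB3 was the member called in parental tumours under the combination. It had 10.1, 13.2, 10.7 and 11.5 CPM under the combination, against 4.87, 6.30, 5.92 and 8.21 CPM under vehicle, without overlap, a log2 change of 0.84 ± 0.21 (SE, adjusted p = 0.0478). The call was lost in 11 of 16 alternative fits, including each of the 7 that left out a library other than parental vehicle 4 (adjusted p from 0.056 to 0.162). In resistant tumours TRIB3 had 12.6, 11.4 and 14.7 CPM under the combination, against 9.71, 6.08, 8.82 and 8.81 CPM under vehicle, again without overlap, and was not called (log2 0.62 ± 0.22 SE, adjusted p = 0.176). Averaged over lines and decitabine, doxorubicin raised TRIB3 (log2 0.40 ± 0.11 SE, adjusted p = 0.0482), the only member of 32 called, against 2.37% of all genes (0.830% higher, 1.54% lower), and the call was lost in 26 of 36 alternative fits, for example without parental doxorubicin 3 (adjusted p = 0.0878). Averaged over lines and doxorubicin, decitabine lowered PHGDH (log2 -0.29 ± 0.09 SE, adjusted p = 0.0375), again 1 member of 32, against 6.80% of all genes (3.96% higher, 2.85% lower). That call was lost in 19 of 36 fits, for example without parental doxorubicin 1 (adjusted p = 0.102).

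Adding doxorubicin to decitabine in parental tumours gave 3 calls, all higher, against 2.73% of all genes called higher, 3.90% lower and 6.63% in all. HSPA5 had 1429, 2038, 1453 and 1818 CPM under the combination, against 1213, 1076, 956 and 1317 CPM under decitabine, without overlap (log2 0.56 ± 0.16 SE, adjusted p = 0.0335). DDIT3 had 55.1, 98.1, 66.8 and 105 CPM under the combination, against 44.8, 44.9, 37.4 and 62.0 CPM under decitabine, with a small overlap (log2 0.78 ± 0.21 SE, adjusted p = 0.0271). PPP1R15A had 100.4, 160.3, 76.3 and 111 CPM under the combination, against 74.2, 52.7, 40.4 and 69.2 CPM under decitabine, without overlap (log2 0.92 ± 0.27 SE, adjusted p = 0.0395). Against vehicle, which is a shared control, their log2 changes under the combination were 0.10, 0.20 and 0.50 and under decitabine alone -0.46, -0.58 and -0.43, none called. ATF4 and XBP1 were at 0.32 ± 0.19 (SE, adjusted p = 0.332) and 0.20 ± 0.14 (SE, adjusted p = 0.413). Leaving out parental decitabine 3 ended all 3 calls (adjusted p = 0.162, 0.134 and 0.179), as did leaving out parental decitabine 2, parental combination 2 or parental combination 4. Without the pair of libraries that stood apart, the count was 6. With other single libraries left out, DDIT3 also lost its call without parental decitabine 1 (adjusted p = 0.0504), and PPP1R15A without parental decitabine 4 (0.0624) or parental combination 1 (0.0625).

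The same addition in resistant tumours called 0 of 32 members, and 0% of all genes, in edgeR, and 0 members in DESeq2. An unadjusted p under 0.05 was found for 2 members, against 3.73% of all genes. Adding decitabine to doxorubicin called 0 members in either line, against 0.304% of all genes in parental tumours (0.259% higher, 0.0445% lower) and 0.660% in resistant tumours (0.593% higher, 0.0667% lower). In that comparison unadjusted p-values under 0.05 were found for 3 members in parental tumours, against 11.7% of all genes, and for 4 members in resistant tumours, against 12.5% of all genes. DESeq2 called 0 members in both. In resistant tumours SYVN1 and DNAJB9, with combination minus doxorubicin values of -0.95 and -0.80 on the log2 scale, did not pass the threshold, and their groups overlapped.

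**Figure D5:**
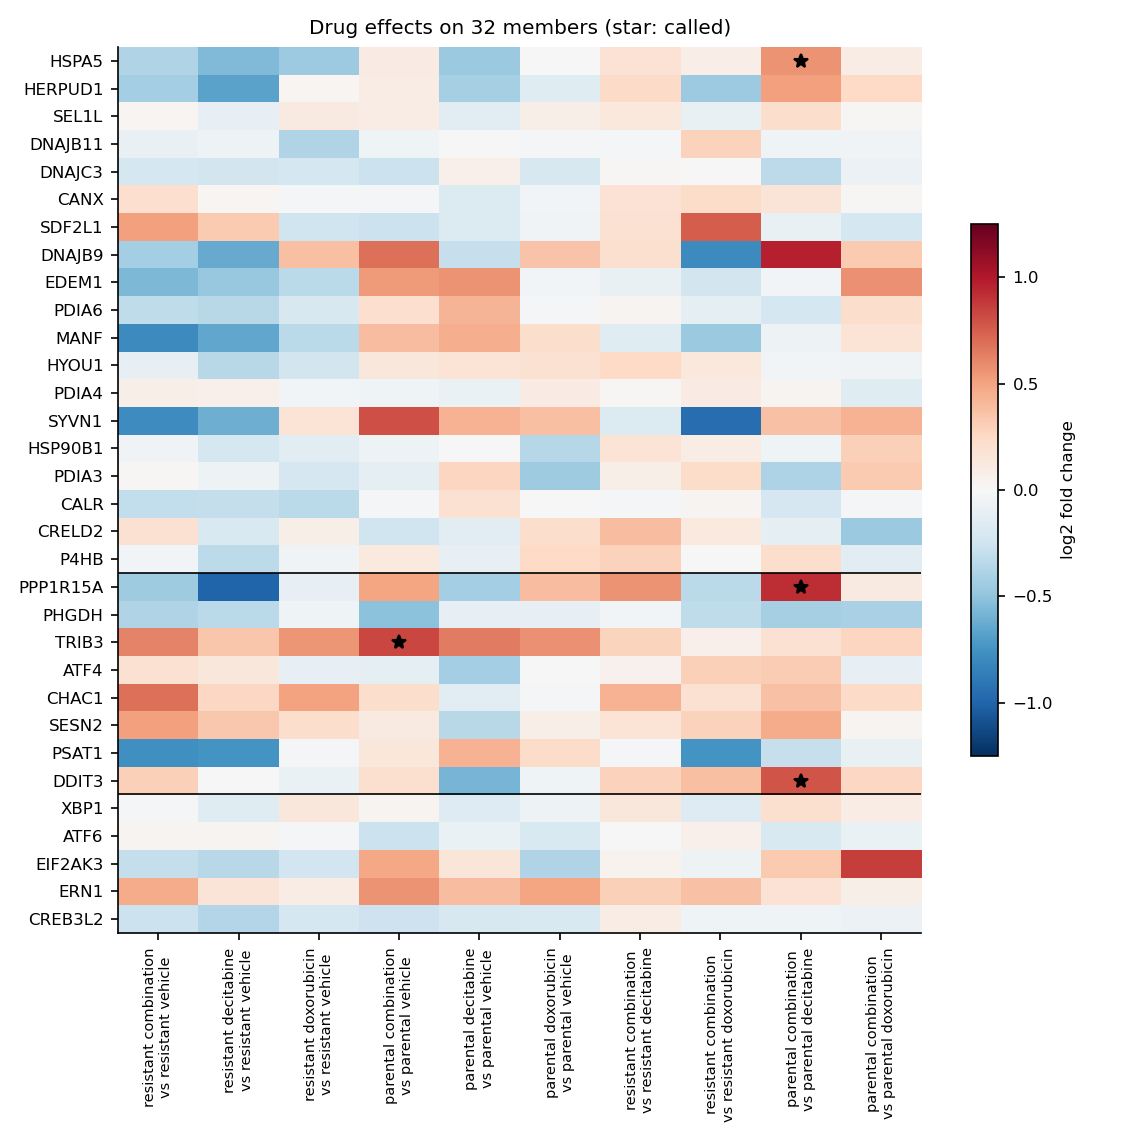
Log2 fold changes of the 32 tested members (rows; black lines part the chaperone, ATF4 and sensor genes) in 10 drug comparisons (columns), red for higher and blue for lower in the first-named group; stars mark the 4 calls. The stars are TRIB3 in parental combination against vehicle, and HSPA5, PPP1R15A and DDIT3 in parental combination against decitabine.

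The members differed in how much they varied between libraries of a group. The median within-group SD of log2 CPM was 0.243 over the 32 members, against 0.281 over all genes tested. DNAJB11, ATF6 and CANX varied least, with SDs of 0.115, 0.127 and 0.146. SYVN1 varied most, at 1.16, a spread above that of 99.8% of tested genes, followed by DNAJB9 at 0.656, EDEM1 at 0.54, PSAT1 at 0.512 and EIF2AK3 at 0.465. SYVN1 had 16.9, 0.283 and 18.9 CPM in the resistant decitabine group and 17.2, 21.9, 1.29 and 20.1 CPM in the parental vehicle group, with the low values in resistant decitabine 2 and parental vehicle 3. In these libraries DNAJB9 had 2.26 and 4.63 CPM, MANF 11.3 and 15.9 CPM and PSAT1 18.9 and 14.4 CPM, each the lowest of its group.

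Other members went the opposite way in the same libraries. Resistant decitabine 2 held the highest ATF4 level of all, 1989 CPM, and SDF2L1 and CRELD2 were 0.67 and 0.38 above the rest of its group on the log2 scale. Parental vehicle 3 likewise exceeded the mean of the rest of its group for ATF4, SDF2L1 and CRELD2, by 0.43, 0.48 and 0.52. In resistant decitabine 2, 8 of 32 members (25%) lay more than 1 log2 unit below the rest of the group, against 10.9% of all genes. In parental vehicle 3 the numbers were 5 of 32 (15.6%) and 6.47%.

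Genes of the same pathways outside the 33 were counted in the averaged line comparison. Of 29 other ER folding genes tested, 11 were lower and 1 higher in resistant tumours. LMAN1, a cargo receptor for glycoproteins, averaged 85.6 against 207 CPM (log2 -1.27 ± 0.07 SE) in resistant against parental tumours, and the peptidyl-prolyl isomerase FKBP7 averaged 9.92 against 20.2 CPM (log2 -1.05 ± 0.10 SE). Of 21 other ERAD genes, 9 were lower and 4 higher, among them WFS1 at 24.0 against 49.7 CPM (log2 -1.12 ± 0.09 SE) and FOXRED2 at 18.3 against 6.21 CPM (log2 1.57 ± 0.16 SE). Of 9 other ER stress factors 2 were higher, the signalling adaptor TRAF2 and the ATF6-like factor CREB3L4 (log2 0.53 and 0.41), and 0 were lower. These shares stand against the 23.4% lower and 22.6% higher over all genes.

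Other ATF4 targets showed no common direction, with 5 higher and 3 lower of 29 tested and a median log2 difference of -0.0024. The cystine transporter SLC7A11 averaged 77.3 against 42.8 CPM (log2 0.83 ± 0.11 SE) and the neutral amino acid transporter SLC1A4 15.6 against 7.87 CPM (log2 0.99 ± 0.11 SE) in resistant against parental tumours. The hormone gene STC2 averaged 4.90 against 2.11 CPM (log2 1.40 ± 0.25 SE), whereas CTH, which makes cysteine from cystathionine, averaged 4.12 against 9.16 CPM (log2 -1.17 ± 0.16 SE). Of 12 cytosolic tRNA synthetases, many of them ATF4 targets, 6 were lower and 0 higher, led by NARS1 at 82.2 against 161 CPM (log2 -0.95 ± 0.06 SE) and SARS1 at 137 against 196 CPM (log2 -0.52 ± 0.08 SE). In the module of eIF2, its kinases and exchange factor, 4 of 19 were lower and 1 higher, with EIF2B3, a subunit of the exchange factor, at 18.7 against 30.4 CPM (log2 -0.71 ± 0.07 SE) and IMPACT, an inhibitor of the kinase EIF2AK4, at 36.0 against 56.9 CPM (log2 -0.65 ± 0.06 SE). Over all genes, 23.4% were called lower and 22.6% higher. The eIF2 module was near the share called lower and below that called higher, and the other ATF4 targets were below both shares. The tRNA synthetases were above the share called lower and below that called higher.

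Of 14 cytosolic heat shock genes tested, a folding system outside the ER, 8 were lower and 0 higher in resistant tumours, against 23.4% lower and 22.6% higher over all genes, with a median log2 difference of -0.40. HSP90AB1, the constitutive cytosolic HSP90, averaged 2039 against 3168 CPM (log2 -0.64 ± 0.06 SE) in resistant against parental tumours, and HSPH1, of the HSP110 class, averaged 372 against 594 CPM (log2 -0.64 ± 0.10 SE). HSPA8, the constitutive HSP70, averaged 29 against 49.0 CPM (log2 -0.73 ± 0.10 SE). HSPA1B averaged 71.5 against 109 CPM (log2 -0.81 ± 0.24 SE), but it shares near-identical sequence with HSPA1A, so its count is uncertain.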

How the data were processed

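Poly(A) RNA of 29 tumours was sequenced as QuantSeq 3′ tags. The authors deposited raw counts per gene; per the submitters' processing notes the tools were cutadapt, STAR 2.7.3a, featureCounts and DESeq2 with GRCh38.p10. The annotation release, the strand setting and the handling of mouse reads are not given in the sources used here, so overlapping or antisense genes and host reads cannot be told apart. Gene symbols and positions were taken from GENCODE by Ensembl identifier.

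Counts were scaled by TMM and tested with edgeR 4.0.16 (quasi-likelihood, robust, R 4.3.3) on 8 group means over all libraries. Genes passed filterByExpr at a minimum count of 10, and p-values were adjusted by Benjamini-Hochberg over 13495 genes and called under 0.05. Levels are CPM per library, taken on the TMM-scaled total of the tested genes. The procedure was tested on simulated data. Alternatives were DESeq2 1.42.0, other scalings and filters, a replicate block, fits on the compared groups only, and fits without 1 library or without both libraries that stood apart.

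The members and lists were chosen with earlier results of these data known. Called members were described in full (at most the 5 largest per comparison), with HSPA5, XBP1, ATF4 and DDIT3 always, and at most 4 genes of any other list.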

Additional observations from a re-analysis of the deposited data

Results flagged for a closer look

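In 5 of 165 gene and group combinations 1 library stood far from the others of its group (Dixon's criterion), and chance gives about 1 in 20. Only groups of 4 libraries were screened, so the groups of 3, among them resistant decitabine, were not. DNAJB11 was low in parental vehicle 1, at 161.356 CPM, with the next library at 176.969 CPM. SEL1L was high in resistant doxorubicin 2, at 312.255 CPM, against at most 289.402 CPM in the others. CRELD2 was low in resistant doxorubicin 3, at 47.4017 CPM, with the next library at 53.1684 CPM. In parental decitabine 4, ASNS was high at 0.464215 CPM, a level near that of single counts, and EIF2AK3 was low at 5.57059 CPM.

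HYOU1 had log2 values of opposite sign for doxorubicin against vehicle in the lines, and neither passed the test. They were -0.23 ± 0.13 (SE, adjusted p = 1, edgeR) in resistant tumours and 0.19 ± 0.14 (SE, adjusted p = 0.695) in parental tumours, a resistant minus parental value of -0.416887. Every doxorubicin sample of each line lay on its own side of the vehicle mean. The difference itself was not tested.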

How the results depend on the processing

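Of 69 member calls, 38 held in every alternative fit and 0 reversed. Counts of members called are given where they moved by over 1.5 times; the cause was not tested. With no filter on low counts they were 3 (parental decitabine against vehicle), 4 (parental combination against vehicle), 5 (resistant decitabine against vehicle), 3 (resistant combination against vehicle), 4 (resistant combination against doxorubicin), 5 (parental combination against decitabine), 3 and 3 (averaged decitabine and doxorubicin effects) and 4 (line difference in the decitabine response). DESeq2 gave 1 for resistant decitabine against vehicle and 4 and 2 for the averaged decitabine and doxorubicin effects. A minimum of 1 CPM in 3 libraries gave 0 for parental combination against vehicle, 2 for averaged decitabine and 0 for averaged doxorubicin. Fits on the compared groups only gave 7 for the lines under the combination, 0 for parental combination against vehicle and 5 against decitabine. Without parental vehicle 3 and resistant decitabine 2 the counts were 0 for parental combination against vehicle, 6 against decitabine, 1 for resistant combination against doxorubicin, and 4 and 2 for the averaged effects.

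The replicate block gave 0 for parental combination against vehicle and for both averaged effects. It ended the calls of TRIB3 in parental combination against vehicle (edgeR adjusted p = 0.0507) and in the averaged doxorubicin effect (0.0518), of PHGDH in the averaged decitabine effect (0.0552), of PPP1R15A in parental combination against decitabine (0.0595), and of ATF6 and P4HB between the lines under the combination (0.0728 and 0.0603). Replicate numbers did not pair the samples: 94 same-numbered pairs had a median correlation of -0.0014, against -0.0039 in 273 others.

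Leaving out 1 library gave 6 to 10 members for the lines under vehicle, 8 to 12 under decitabine, 6 to 10 under doxorubicin, 6 to 12 under the combination and 14 to 19 averaged. The ranges were 0 to 2 for parental combination against vehicle and for resistant decitabine against vehicle, 0 to 4 for parental combination against decitabine and for averaged decitabine, and 0 to 3 for averaged doxorubicin. ASNS had at most 7 counts in any library, too few to test here.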
